A study of Mus musculus with 2 samples.

Results

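Group 2 innate lymphoid cells (ILC2) were described in a pair of single-cell RNA libraries of adult mouse lung. They were chosen from raw counts of unique molecular identifiers (UMIs, each standing for 1 captured transcript) by the presence of at least 3 of 8 transcripts, namely Il1rl1, Gata3, Hs3st1, Arg1, Rnf128, Ptpn13, Il5 and Ccdc184. A member also had no UMI of the CD3 genes, Cd79a, the mast cell proteases Cma1 and Mcpt4 or the alveolar macrophage genes Krt79 and Plet1, and at most 1 UMI of the complement C1q genes. The rule took 291 of 16932 cells that passed the quality limits, with 225 of 6794 in the oil library and 66 of 10138 in the tamoxifen library. Levels of the 8 genes served to choose the cells and are given as a description.

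All animals were adult and carried Gli1creERT, in which the Gli1 gene drives a Cre recombinase that tamoxifen switches on, together with floxed Hhip alleles, and the groups differed in the injection of oil or of tamoxifen. Gli1 marks mesenchymal cells that respond to Hedgehog, and Hhip encodes a surface inhibitor of Hedgehog signalling. A CD45 antibody was injected into the blood 3 min before the mice were killed, and the sort took live CD45-positive cells that this antibody had not reached, which selects cells of the tissue over those of the vessels. The age in weeks, the strain background, the sex and the number of animals per library are not given in the sources used here, and transcripts of female and of male cells were present in both libraries. Each group is 1 library, so nothing was replicated or tested, and every interval is a 95% interval for counting error alone. A ratio is the log2 of tamoxifen divided by oil.

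ILC2 are lymphocytes without rearranged antigen receptors that reside in tissues such as the lung. They respond to the alarmins IL-33, IL-25 and TSLP and to neuropeptides and lipid mediators, and they release IL-5, which sustains eosinophils, IL-13, which acts on epithelium and smooth muscle, and amphiregulin, a growth factor of tissue repair. Their identity depends on the transcription factors GATA3 and ROR-alpha.

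The promoters of Il5 and Il13 are shown because these cytokine genes, neighbours on mouse chromosome 11, carried the largest differences among the measured effector genes. The sequences are from RefSeq (GRCm38.p6), run from 250 bases before to 50 bases after the gene start, and read 5′ to 3′ on the strand of the gene. That of Il5 lies at chr11:53720544-53720843 on the plus strand and that of Il13 at chr11:53634653-53634952 on the minus strand. Capitals mark matches to a GATA motif (AGATAA or AGATAG, also TGATAA or TGATAG, on either strand), of which each promoter held 1.
Il5: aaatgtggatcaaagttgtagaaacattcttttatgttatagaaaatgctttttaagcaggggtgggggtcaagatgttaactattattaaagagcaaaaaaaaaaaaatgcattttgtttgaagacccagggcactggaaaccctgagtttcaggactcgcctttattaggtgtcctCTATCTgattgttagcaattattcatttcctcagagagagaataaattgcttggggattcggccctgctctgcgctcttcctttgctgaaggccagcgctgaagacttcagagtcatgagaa
Il13: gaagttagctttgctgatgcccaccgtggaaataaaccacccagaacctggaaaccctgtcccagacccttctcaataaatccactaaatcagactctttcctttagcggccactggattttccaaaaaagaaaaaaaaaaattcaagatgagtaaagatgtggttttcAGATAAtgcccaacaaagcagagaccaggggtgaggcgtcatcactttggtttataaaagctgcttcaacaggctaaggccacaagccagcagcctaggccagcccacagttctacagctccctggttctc
Of 32851 promoters of this length, 29.8% held at least 1 such match. These matches describe the letters only, and binding was not measured.

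The members carried the markers of the label. Of 57704412 UMIs in 10342 oil barcodes and 83730550 UMIs in 12980 tamoxifen barcodes, members held 1152776 and 266051 UMIs. A member had a median of 4885 UMIs (547 to 24728) and 1429 genes in oil, and of 3852 UMIs (987 to 17195) and 1179 genes with tamoxifen. The IL-7 receptor Il7r, on which ILC2 depend and which the rule did not use, had a UMI in 222 of 225 oil members and 65 of 66 tamoxifen members. The libraries shared 41 cell barcodes, none of which was a member in both.

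Among the genes of the rule, levels in the 2 libraries lay furthest apart for Il5. Levels are CPM, the UMIs of a gene scaled to the same total of member UMIs in each library. Those of Il1rl1, the IL-33 receptor, were 625 CPM in oil and 643 CPM with tamoxifen, and those of Gata3 were 519.6 and 575. Hs3st1, a heparan sulfate sulfotransferase, was at 343 and 327 CPM, and Arg1, arginase 1, at 318 and 229 CPM. Rnf128, an E3 ubiquitin ligase, was at 103 and 154 CPM. Il5 was at 41.6 and 699 CPM, a difference taken up below.

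Cells close to the threshold resembled each other in depth and less in Il7r. In oil, 64 members had exactly 3 of the 8 transcripts (median 3695.5 UMIs, 98.4% with an Il7r UMI), and 69 cells outside the rule had 2 (4562 UMIs, 75.4%). With tamoxifen these were 22 members (3734 UMIs, 95.5%) and 30 cells outside (4247 UMIs, 70.0%). Of 375 oil cells with at least 3 transcripts, 128 carried a CD3 UMI, and of 152 tamoxifen cells 74 did, the largest group set aside. At least 3 of the 8 transcripts were found in 2 of 184 B cells in oil and 2 of 312 with tamoxifen, in 17 of 312 and 9 of 627 CD4 T cells, and in 5 of 476 and 10 of 2507 alveolar macrophages.

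Markers of other cell types were low, with named exceptions. Foxp3, Cd4, Cd8a, Mcpt8, Ms4a2, Eomes, Il22, Ms4a1, Col1a1, Ppbp and Cd209a had 0 UMIs in members of both libraries. Other listed genes were present. Cpa3, of the mast cell and basophil list, had 45 UMIs in 19 oil members and 1 with tamoxifen, and Fcer1a 14 in 7 and 0. The platelet gene Pf4 had 19 UMIs in 11 oil members and 2 with tamoxifen. Endothelial Cldn5 had 51 UMIs in 3 oil members and 4 with tamoxifen. Neutrophil S100a9 had 3 UMIs in oil and 13 in 10 tamoxifen members. The T cell list summed to 501 CPM in oil and 455 CPM with tamoxifen, with Cd3d, Cd3e and Cd3g at 0 by the rule and Cd4 and Cd8a at 0 as measured. Its UMIs lay in the T cell receptor constant genes, which innate lymphocytes can transcribe, such as Trbc2 with a UMI in 127 of 225 and 30 of 66 members. Dendritic cell genes summed to 708 and 695 CPM, mostly from H2-Ab1, of which 1 oil member held 364 UMIs and 1 tamoxifen member 162. Over the whole lists, 85 oil and 20 tamoxifen members had at least 3 T cell UMIs, and 32 and 3 had at least 3 monocyte UMIs. With H2-Ab1, Ccr2, Trbc1, Trbc2 and the C1q genes left out of the lists, members with at least 3 UMIs of another type's markers or 10 of haemoglobin numbered 19 in oil and 3 with tamoxifen, and 1 of the latter carried fibroblast genes. Their part in the results was not tested except where values without them are given.

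ILC2 made up a smaller share of the cells in the tamoxifen library. They were 3.31% of kept oil cells (2.90 to 3.77) and 0.651% of kept tamoxifen cells (0.504 to 0.828), a 5.09-fold lower share (log2 -2.35, -2.74 to -1.95). Shares of a sort are relative, and alveolar macrophages were 7.01% of oil and 24.7% of tamoxifen cells. Without them ILC2 were 3.56% and 0.865% of the cells (-2.04, -2.43 to -1.65). Of lymphoid cells alone, ILC2 were 6.27% (225 of 3586) in oil and 1.18% (66 of 5608) with tamoxifen (-2.41, -2.81 to -2.02).

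The lower share was seen within each sex. Among female cells, ILC2 were 3.42% in oil (127 of 3714) and 0.471% with tamoxifen (29 of 6156), a log2 ratio of -2.86 (-3.44 to -2.28). Among male cells they were 3.33% (47 of 1413) and 0.834% (14 of 1679), or -2.00 (-2.85 to -1.14). The intervals of the sexes overlap. Female cells were 56.4% of oil members and 43.9% of tamoxifen members, against 54.7% and 60.7% of all kept cells. Male cells were 20.9% and 21.2% of members, against 20.8% and 16.6% of all kept cells. The remaining cells had no sex call and are left out of all values by sex. Barcodes over the mitochondrial limit were more frequent in the oil library, at 31.9% against 20.7%, and with the limit moved to 5% or 25% the log2 ratio of the ILC2 share was -2.33 or -2.31.

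NK cells and ILC1 without CD3, the other innate lymphocytes of the sort, were also a smaller share, at 1.85% in oil (126 cells) and 0.434% with tamoxifen (44 cells), a log2 ratio of -2.10 (-2.59 to -1.60). This interval overlaps that of ILC2. CD4 T cells without Foxp3 stood at 4.59% and 6.18% (0.43, 0.24 to 0.62), and B cells at 2.71% and 3.08% (0.18, -0.07 to 0.44). A smaller share can come from fewer ILC2 or from more of the other cells, which these data cannot tell apart.

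**Figure D1:**
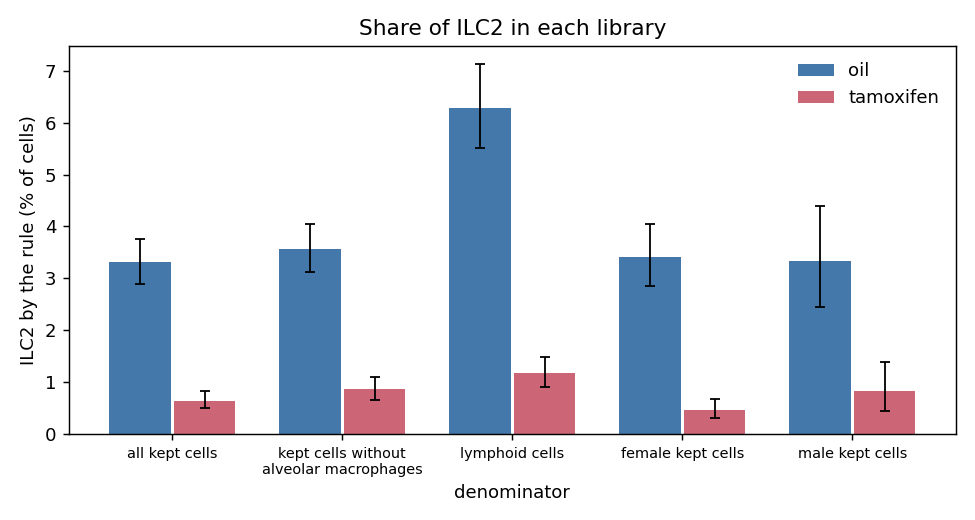
Bars show the share of cells that were ILC2 (percent of cells, linear axis from 0) in the oil and tamoxifen libraries over 5 denominators, with exact 95% binomial intervals for counting error. The tamoxifen bar is lower over each denominator, from 0.471% of female cells to 1.18% of lymphoid cells, against 3.31% to 6.27% in oil.

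Gene levels within ILC2 were compared for 5871 genes with at least 20 UMIs over both libraries. Of these, 235 genes (4.0%) were at least 2-fold higher with tamoxifen and 466 (7.94%) at least 2-fold lower, or 11.9% in all, and the median log2 ratio was -0.03. The small tamoxifen group sets the precision. Of the 235 higher genes 137 had an interval above 0, and 48 had most of their tamoxifen UMIs in 1 cell. Of the 466 lower genes only 191 had an interval below 0, so that most of the 2-fold lower values are within counting error, and 45 had no UMI with tamoxifen, so that 439 remain 2-fold lower when 3 counts are put in place of 0. The groups below are read against these shares.

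Transcription factors of ILC2 mostly lay within 2-fold of each other in the 2 libraries. Of 23 listed genes 18 had enough UMIs, of which 11 were higher and 7 lower, none 2-fold higher and 1 2-fold lower, with a median of 0.16. The core factor Gata3, itself a gene of the rule, had a log2 ratio of 0.15 (-0.12 to 0.40). Rora, which encodes ROR-alpha, was at 424 CPM in oil and 583 with tamoxifen (0.46, 0.19 to 0.72). After each member was thinned to 1500 UMIs, Rora was found in 39.1% of 202 oil members and 54.2% of 59 tamoxifen members (0.47, 0.05 to 0.89), against 2.21% and 0.323% of B cells. Lmo4, a cofactor of LIM domain proteins, stood at 1103 and 1507 CPM (0.45, 0.28 to 0.61), and Nfkb1, a subunit of NF-kappaB, at 508 and 740.5 CPM (0.55, 0.30 to 0.78). Id2, which is needed for all innate lymphoid cells, had 484 and 469.8 CPM (-0.04, -0.33 to 0.24). The 2-fold lower gene was Gfi1, a repressor, with 38 and 3 UMIs (-1.34, -3.89 to 0.11).

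Receptors for alarmins and cytokines were spread around no difference, with 10 of 23 measured genes higher and 13 lower (median -0.07), 1 of them 2-fold each way. The IL-33 receptor Il1rl1, itself a gene of the rule, stood at 0.04 (-0.21 to 0.28). Il17rb, which binds IL-25, had 77 UMIs in oil and 9 with tamoxifen (66.8 and 33.8 CPM, -0.91, -2.16 to 0.02). Crlf2, which binds TSLP, had 65 and 17 UMIs (0.21, -0.68 to 0.97). Il2ra, the high-affinity chain of the IL-2 receptor, was lower, at 302 CPM in oil and 203 with tamoxifen (-0.56, -1.01 to -0.16). Il2ra was also lower in all other kept cells (-0.40), in CD4 T cells (180 and 91.5 CPM) and in NK cells and ILC1 (91.1 and 65.2 CPM). It was found in 33.7% of thinned oil members and 18.6% of thinned tamoxifen members (-0.85, -1.67 to -0.03), and its ratio was negative in female (-0.62) and male (-1.11) cells. The 2-fold genes were Il10ra, the IL-10 receptor chain, with 48 and 23 UMIs (1.07, 0.27 to 1.80), and Il2rb, another IL-2 receptor chain, with 46 and 4 UMIs (-1.25, -3.34 to 0.05). Tnfrsf18, the costimulatory receptor GITR, was found in 34.2% and 49.2% of thinned members (0.53, 0.06 to 0.99), although its CPM of 309.7 and 349.6 differed within the counting error (0.18, -0.17 to 0.51). Without thinning it was found in 60.4% and 60.6% of members.

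Cytokines and other secreted or effector products differed in both directions. Of 20 listed genes 12 were measured, with 4 higher and 8 lower (median -0.13), 3 of them 2-fold higher and 2 2-fold lower. These counts include Il5 and Arg1, which are genes of the rule and served to choose the members. Il9, Il10, Penk and Tnfsf4 had 0 UMIs in both libraries, and Il4, the sister cytokine of Il13, had 7 and 0. The 3 higher genes were Il5, Il13 and Il2, and the 2 lower ones Lif, a cytokine of the IL-6 family, and Pdcd1lg2, which encodes the checkpoint ligand PD-L2.

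Il5 (ENSMUSG00000036117, GRCm38 chromosome 11, 53720794 to 53725106) had 48 UMIs in 26 of 225 oil members and 186 in 12 of 66 tamoxifen members. The summed level was 41.6 CPM in oil and 699 CPM with tamoxifen, a log2 ratio of 4.06 (3.60 to 4.56). A few cells carried this difference. In the tamoxifen library the 4 highest cells held 134, 38, 2 and 2 UMIs, so that 172 of 186 lay in 2 cells, while the 4 highest oil cells held 12, 7, 3 and 3. Without the 2 highest members of each library, 29 UMIs (25.2 CPM) remained in oil and 14 (52.6 CPM) with tamoxifen, a log2 ratio of 1.06 (0.03 to 2.03). The share of members with an Il5 UMI was 11.6% (7.69 to 16.5) in oil and 18.2% (9.76 to 29.6) with tamoxifen (0.65, -0.25 to 1.56), which the number of cells does not separate. Il5 is a gene of the rule, so its levels and shares describe the chosen cells. The summed ratio was positive in female (4.70) and male (2.92) members, but these ratios were not recomputed without the highest cells. Members held 30.6% of all Il5 UMIs of the kept oil cells and 83.0% of those of the tamoxifen cells. In all other kept cells Il5 had 109 and 38 UMIs and was lower with tamoxifen (-2.12).

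Il13 (ENSMUSG00000020383, chromosome 11, 53631324 to 53634702) followed the same direction in few cells. It had 23 UMIs in 5 oil members and 25 in 6 tamoxifen members, or 19.95 and 94.0 CPM (2.23, 1.36 to 3.12). The highest cells held 12 and 8 UMIs in oil and 10, 7 and 4 with tamoxifen. A UMI was found in 2.22% and 9.09% of members (2.03, 0.37 to 3.70), and the summed ratio was positive in female (3.06) and male (1.44) cells. These ratios by sex rest on the same few cells and were not recomputed without the highest ones. Of the tamoxifen members with an Il5 UMI 3 of 12 also had Il13, against 3 of the 54 others. All other kept cells held more Il13 UMIs than the members, 160 in oil and 84 with tamoxifen, and there Il13 was lower with tamoxifen (-1.54).

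Among the products described next Areg, Ccl1, Lif and Pdcd1lg2 had lower sums with tamoxifen, Csf2 was close and Il2 had a higher sum. Areg, which encodes amphiregulin, had 812 UMIs in 65 oil members and 95 in 19 tamoxifen members, or 704 and 357 CPM (-0.97, -1.30 to -0.67). The share of members with Areg was 28.9% and 28.8%, and the highest cell held 171 UMIs in oil and 32 with tamoxifen. Csf2, which encodes GM-CSF, was close, at 188 and 177 CPM (-0.08, -0.58 to 0.37). Ccl1, a ligand of CCR8, stood at 192 and 109 CPM (-0.79, -1.43 to -0.25), but was lower in female (-2.81) and higher in male (1.29) cells. Lif had 85 UMIs in 30 oil members and 5 in 3 tamoxifen members (-1.84, -3.63 to -0.69), and Pdcd1lg2 had 27 and 1 (-2.08, -8.00 to -0.04). Il2 had 46 and 27 UMIs (1.36, 0.60 to 2.06), of which 1 tamoxifen cell held 18, and without the highest cell of each library it stood at 0.21.

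Calca, the gene of calcitonin and of the neuropeptide CGRP, was found in more members of the tamoxifen library. It had 600 UMIs in 79 oil members and 214 in 33 tamoxifen members, or 520.5 and 804 CPM (0.63, 0.40 to 0.86). A UMI was found in 35.1% of oil members and 50.0% of tamoxifen members (0.51, 0.08 to 0.94). At 1500 UMIs per cell the shares were 22.3% (45 of 202) and 45.8% (27 of 59), a log2 ratio of 1.04 (0.49 to 1.59), against 0.552% and 0% of B cells (1 of 181 and 0 of 310). The higher sum did not hold in female cells (-0.16) and was seen in male cells (0.84), which are 29 and 14 of the tamoxifen members. In members, Calca was 8.92 times its level in the other kept cells in oil and 18.2 times with tamoxifen.

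Genes that sense or make neuropeptides and lipid mediators included several at lower levels with tamoxifen. Of 20 listed genes 12 were measured, 6 higher and 6 lower (median -0.18), with 1 2-fold lower and none 2-fold higher. The CGRP receptor is formed by Calcrl and Ramp1. Ramp1 was at 589.9 CPM in oil and 436 with tamoxifen (-0.43, -0.73 to -0.15), and Calcrl had 102 and 12 UMIs (-0.92, -1.97 to -0.11). Without the members that carried markers of another type, Calcrl stood at -0.45. The leukotriene genes did not move as one. Alox5, 5-lipoxygenase, which starts leukotriene synthesis, had 58 and 3 UMIs (-1.95, -4.48 to -0.54) and was found in 7.43% of thinned oil members (15 of 202) and 0 of 59 thinned tamoxifen members, for which the exact upper limit on the share of members with a UMI is 6.06%. Cysltr1, a receptor of cysteinyl leukotrienes, had 144 and 17 UMIs (125 and 63.9 CPM, -0.93, -1.79 to -0.24), and thinned shares of 18.3% and 6.78% (-1.43, -2.86 to -0.01). It was lower in female (-1.62) and higher in male (0.41) cells. Alox5ap, the protein that 5-lipoxygenase needs, had 47 and 15 UMIs (0.50, -0.48 to 1.33), with 12 in 1 cell of each library. Ltb4r1, a receptor of leukotriene B4, stood at -0.39 (-0.89 to 0.06), and Ltc4s, leukotriene C4 synthase, had 1 UMI in each library. Ramp3, a partner of the adrenomedullin receptor, was higher, with 98 and 37 UMIs (0.72, 0.12 to 1.27). Nmur1, the neuromedin U receptor, had 16 UMIs in oil and 0 with tamoxifen.

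**Figure D2:**
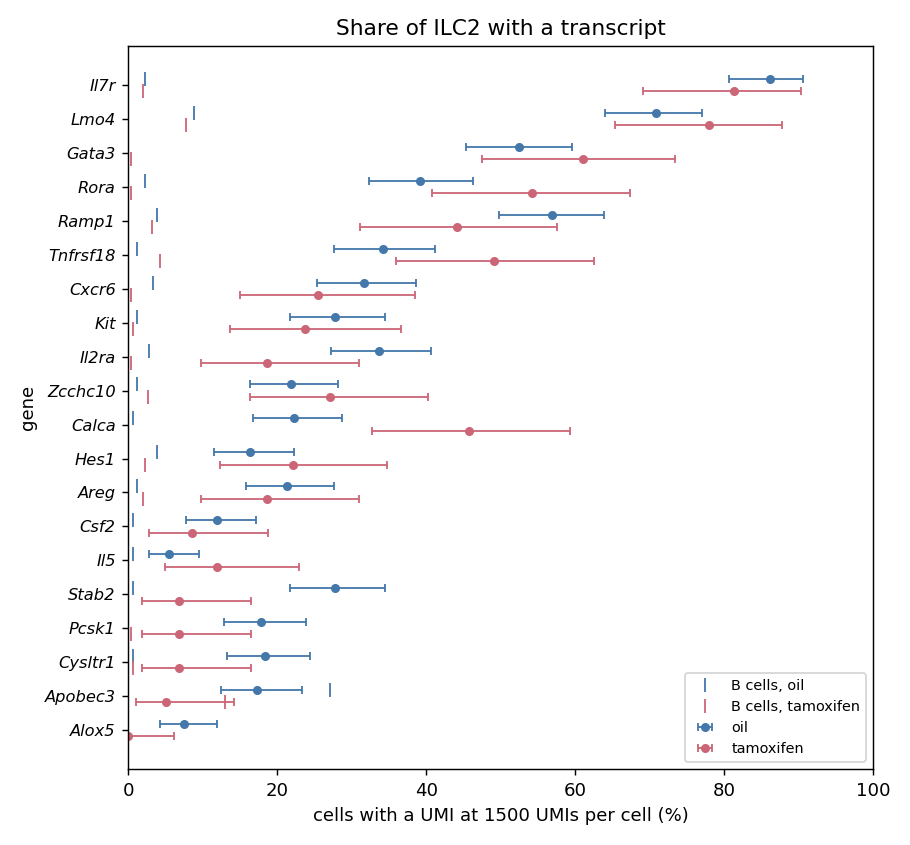
Points show the share of ILC2 with at least 1 UMI of each gene (percent of 202 oil and 59 tamoxifen members, after thinning to 1500 UMIs per cell) with exact 95% binomial intervals, and vertical ticks show B cells of the same library. Calca stands at 22.3% and 45.8%, Stab2 at 27.7% and 6.78%, and most other genes have overlapping intervals, with Apobec3 found in B cells as well. Without thinning Stab2 was found in 50.2% and 36.4% of members.

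Residency, migration and adhesion genes were 8 higher and 10 lower of 18 measured (median -0.09). Cxcr6, a chemokine receptor of tissue lymphocytes, stood at 0.22 (-0.16 to 0.56), and Cd69, which holds cells in tissue, at -0.10 (-0.47 to 0.24). S1pr1, the receptor used to leave tissue, had 11 and 1 UMIs. Cxcr4, the receptor of CXCL12, was higher, at 118 and 195 CPM (0.74, 0.24 to 1.20), with thinned shares of 13.9% and 25.4% (0.88, 0.07 to 1.68). Without thinning the shares of members with Cxcr4 were close, at 34.7% and 33.3%. Itgb7, an integrin chain, was at 205 and 135 CPM (-0.58, -1.15 to -0.09), yet its thinned shares of 25.2% and 23.7% did not separate. The single 2-fold gene was Itgae, another integrin chain, with 10 and 12 UMIs, of which 1 tamoxifen cell held 11.

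Of the inhibitory receptors and feedback genes 5 of 12 were higher and 7 lower (median -0.32), with none past 2-fold. Klrg1, a receptor of activated ILC2, had 113 and 16 UMIs (-0.67, -1.56 to 0.06). Cish, a feedback inhibitor of cytokine signalling, had 92 and 11 (-0.89, -2.00 to -0.04). Pdcd1, which encodes PD-1, stood at 0.18 (-0.54 to 0.81). Survival genes were 6 higher and 4 lower of 10 (median 0.04), with Bcl2, which blocks cell death, at 246 CPM in oil and 158 with tamoxifen (-0.63, -1.15 to -0.17) and at -0.60 in all other kept cells. Bax, which promotes cell death, had 110 and 20 UMIs (-0.32, -1.11 to 0.35).

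Interferon response genes were 4 higher and 7 lower of 11 measured (median -0.35), with 1 2-fold lower. That gene was Tap1, a peptide transporter, with 20 UMIs in oil and 0 with tamoxifen, at least 1.54-fold lower against a floor of 3 counts. Ifi203, an interferon-inducible gene, had 138 and 24 UMIs (-0.38, -1.10 to 0.22). Metabolic genes were 5 higher and 11 lower of 16 (median -0.21), none past 2-fold, while 15 of these 16 genes were higher with tamoxifen in all other kept cells (median 0.21). Hif1a, the hypoxia factor, had 105 and 13 UMIs (-0.85, -1.85 to -0.06), and Slc7a8, an amino acid transporter, 166 and 23 (-0.71, -1.43 to -0.10). Ldha, lactate dehydrogenase, stood at 565 and 639 CPM (0.18, -0.07 to 0.42). The difference between ILC2 and the other cells was not tested.

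Immediate early and heat shock genes, which respond rapidly to stimulation, were 15 higher and 3 lower of 18 (median 0.61), with 4 2-fold higher. For several genes a single tamoxifen member held most of the UMIs, with 250 of 368 tamoxifen UMIs of Fos, 144 of 181 of Jun and 68 of 71 of Hspa1a. Without the highest member for each gene in each library the median of the list was -0.02, Fos stood at -0.46 and Jun at -1.15. When members with markers of another type were left out, Fos stood at -0.38 and Jun at -0.58. Ratios that stayed at 0.30 or above without the highest cell were those of Dusp1, a phosphatase of MAP kinases (1.07, and 0.62 without that cell), Ier2 (0.95 and 0.56), Btg2, an antiproliferative gene (0.70 and 0.50), and the orphan nuclear receptors Nr4a1 (0.55 and 0.44) and Nr4a3 (0.47 and 0.30). Without members carrying markers of another type Btg2 stood at 0.28 and Nr4a1 at 0.37, and in male members Dusp1 stood at -0.16 and Nr4a1 at -0.14. In all other kept cells, a pool whose make-up differed between the libraries, 3 of the 18 genes were higher (median -0.21).

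Few members carried several transcripts of the cell cycle in either library. At least 3 of 6 genes of the cell cycle were found in 3 of 225 oil members (1.33%, 0.276 to 3.85) and in 0 of 66 tamoxifen members (upper limit 5.44%), which the depth does not separate. The cycling list was 2 higher and 8 lower of 10 (median -1.25), with 5 genes 2-fold lower. Of these Mki67, Birc5 and Mcm5 had 24, 20 and 22 UMIs in oil and 0 with tamoxifen, and with 3 counts in place of 0 the median was -0.60 and Top2a and Stmn1 alone, 2 of the 5, stayed 2-fold lower. The proliferation gene Top2a had 42 of its 57 oil UMIs in 1 cell, and Stmn1, a regulator of microtubules, 41 of 72.

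Hedgehog pathway genes were near absent from ILC2. Hhip, Gli1, Gli2 and Gli3 had 0 UMIs in members of both libraries, and over all kept cells Hhip had 40 UMIs in oil and 29 with tamoxifen. Ptch1, the Hedgehog receptor and itself a target of the pathway, had 15 UMIs in oil members and 4 in tamoxifen members, Smo 1 and 0, and Sufu 10 and 3. Recombination of Hhip was not measured here.

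Genes were also ordered by the bound of their interval closest to 0, and the higher ones rested largely on single cells. The first 12 higher genes in this order were Cyr61, Mgp, Il5, Plpp3, Ctgf, Id3, Ogn, Gsn, Fmo2, Tnfsf8, Inmt and Sparcl1. Many of these are genes of fibroblasts and matrix. A single tamoxifen member held 67 of 67 tamoxifen UMIs of Cyr61, 203 of 206 of Mgp and 73 of 77 of Gsn. Without the highest cell of each library, no tamoxifen UMI was left of Cyr61, Plpp3, Ctgf, Id3, Ogn and Fmo2, and 1 to 4 were left of Mgp, Gsn, Inmt, Sparcl1 and Tnfsf8, the CD30 ligand. Il5 then had 36 UMIs in oil and 52 with tamoxifen, a log2 ratio of 2.64.

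Several lower genes were spread over more cells. The prohormone convertase gene Pcsk1 (ENSMUSG00000021587, chromosome 13, 75089826 to 75134861), which cleaves peptide precursors, had 171 UMIs in 70 oil members and 8 in 6 tamoxifen members. This was 148 and 30.1 CPM (-2.22, -3.54 to -1.29), and the thinned shares were 17.8% and 6.78% (-1.39, -2.82 to 0.04). It was lower in female (-1.92) and male (-1.11) members, and stood at -0.14 in all other kept cells. Apobec3, a cytidine deaminase that restricts retroviruses, had 179 UMIs in 104 members and 14 in 13 (-1.51, -2.46 to -0.78), with thinned shares of 17.3% and 5.08% (-1.77, -3.42 to -0.12), and it was lower in the other kept cells too (-0.86). Ly6a, which encodes the surface protein Sca-1, had 269 and 27 UMIs (-1.18, -1.83 to -0.63). Epas1, which encodes the hypoxia factor HIF-2 alpha, had 108 UMIs in 48 members and 5 in 4 (-2.19, -3.97 to -1.05), and it was also lower in the other kept cells (-0.88), in NK cells and ILC1 (-2.39) and in CD4 T cells (-1.02).

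The remaining lower genes were Serpina3g, a protease inhibitor, with 81 and 4 UMIs (-2.06, -4.13 to -0.81), Krt83, a keratin gene, with 65 and 3 (-2.11, -4.64 to -0.71), Gt(ROSA)26Sor, Lif, Stmn1, Hopx, Vegfa and Ager. Gt(ROSA)26Sor had 122 and 7 UMIs (-1.91) and was also lower in the other kept cells (-1.19) and in CD4 T cells (-1.28), and its ratio in male members was -0.02. Single oil cells held 131 of 177 UMIs of Hopx, 47 of 62 of Vegfa and 121 of 143 of Ager, an epithelial gene with 0 UMIs in tamoxifen members. Against a floor of 3 counts Ager was at least 11-fold lower, and without that 1 oil cell at least 1.69-fold.

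**Figure D3:**
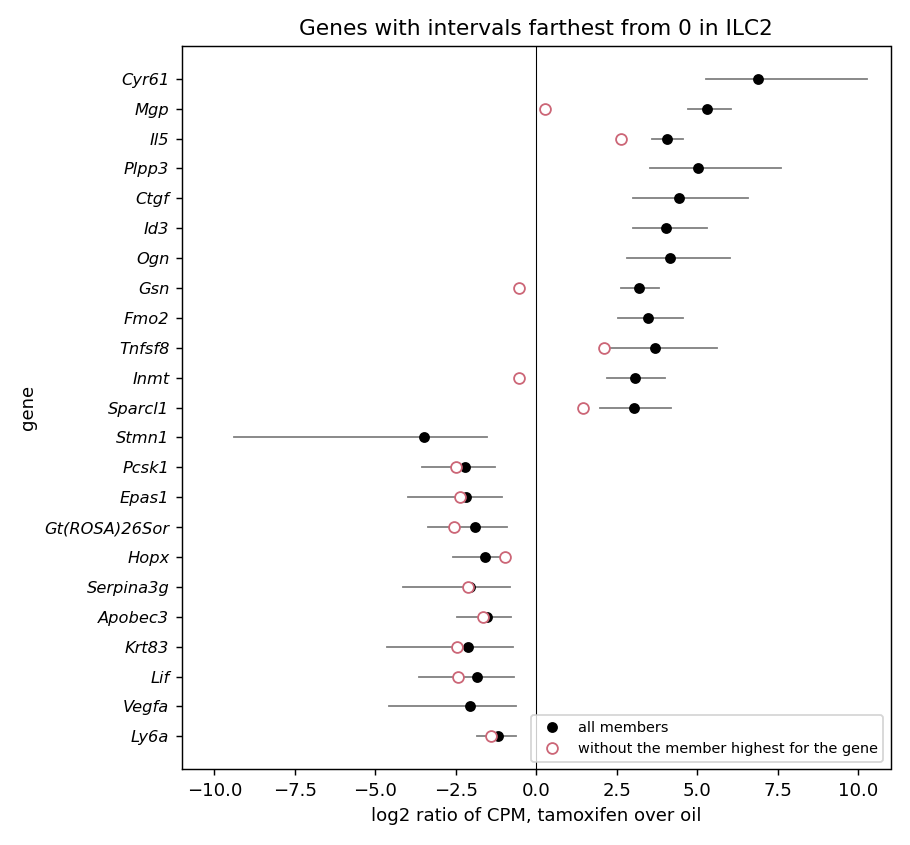
Filled points show the log2 ratio of CPM (tamoxifen over oil) in all ILC2 for the genes whose intervals lie farthest from 0, with 95% counting intervals as lines. Open points give the ratio without the member highest for that gene in each library, where at least 1 UMI is left in both, and Ager, at 0 with tamoxifen, is not drawn. Cyr61, at 6.87, has no open point, while those of Il5 and Pcsk1 lie at 2.64 and -2.48.

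Genes outside the rule with high levels in ILC2 were taken by the smaller of the 2 folds over the other kept cells, among genes of at least 100 CPM in both libraries. A high fold in both is thus fixed by the choice and describes the chosen cells. Stab2 (chromosome 10, 86841198 to 87008025), a scavenger receptor that binds hyaluronan and is best known in sinusoidal endothelium, led with 189 CPM in oil and 117 with tamoxifen, 39.3 and 69.7 times the level in the rest. In thinned members it was found in 27.7% (56 of 202) and 6.78% (4 of 59), a log2 ratio of -2.03 (-3.43 to -0.63), while its summed level differed less (-0.68, -1.29 to -0.15). Without thinning the gap was narrower, at 113 oil members (50.2%) and 24 tamoxifen members (36.4%). Bmp2, a bone morphogenetic protein, was 14.0 and 82.0 times the rest, with 122 and 65 UMIs (1.21, 0.75 to 1.65). The highest tamoxifen cells held 19 and 17 of these UMIs, and the highest oil cells 14 and 11. Bmp2 was found in 45 of 225 oil members and 15 of 66 tamoxifen members. Its thinned shares of 10.4% and 8.47% did not separate (-0.29, -1.64 to 1.05). The computed ratio of its summed level was -2.84 in female and 1.69 in male members. The male value is also that of Il9, which had 0 UMIs in both libraries, so it does not show a higher level in male members. Bmp2 UMIs by sex are not given, and a difference between the sexes was not tested. Zcchc10, a zinc knuckle gene, was 10.4 and 11.1 times the rest, and Spry2, an inhibitor of receptor tyrosine kinase signalling, 9.69 and 20.2 times. Spry2 was higher still in NK cells and ILC1, at 395 CPM in oil and 257 with tamoxifen, against 142 and 120 CPM in ILC2.

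Hes1 belonged to this group as well. Hes1 (chromosome 16, 30064384 to 30067796), a transcriptional repressor downstream of Notch, was at 157 and 210.5 CPM, 8.37 and 15.8 times the rest. Others with high folds were Csf2, Calca, Tspan32, Hlf, Inpp4b, Ccl1, Ern1, Nrgn and Tespa1. In the tamoxifen library Ccl1 and Nrgn were higher in CD4 T cells (325 and 481 CPM) than in ILC2 (109 and 312 CPM). In oil both were lower in CD4 T cells (57.8 and 95.4 CPM) than in ILC2 (192 and 340 CPM).

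Zcchc10 and Csf2 lie around Il5 on chromosome 11, a window chosen after the values were seen. Within 1000 kb of the Il5 start, 21 genes had a UMI in members and 14 were measured. Of these 6 (42.9%) were at least 2-fold above the other kept cells in both libraries, against 294 of all 5871 measured genes (5.01%). Besides Il5 they were Zcchc10 (its start at -396.1 kb), Aff4, an elongation factor subunit (-370 kb), Il13 (-89.5 kb), P4ha2, a collagen hydroxylase (379.3 kb), and Csf2 (526.5 kb). Aff4 was at 442 CPM in oil and 526 with tamoxifen, 4.17 and 4.74 times the rest. P4ha2 had 31 and 4 UMIs, 7.36 and 9.73 times the rest. The other measured genes between them were under 2-fold in both libraries, with Rad50 at 1.35 and 1.44 times, Irf1 at 0.274 and 0.415 times and Uqcrq at 0.708 and 0.308 times the rest. Il4, with 7 UMIs in oil members and 0 with tamoxifen, was too low to be among the measured genes and stood at 12.1 times the rest in oil. Il5 is a gene of the rule, and the comparison describes the chosen cells with no test.

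**Figure D4:**
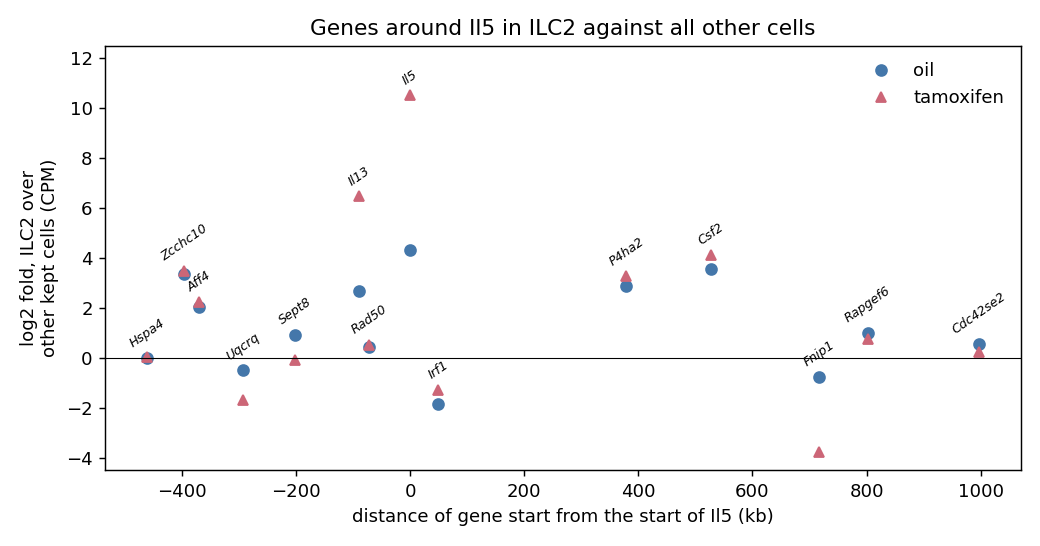
Points show the log2 fold of CPM in ILC2 over all other kept cells, for oil (circles) and tamoxifen (triangles), for the 14 measured genes against the distance of their start from that of Il5 in kb. Zcchc10, Aff4, Il13, Il5, P4ha2 and Csf2 lie above 1 in both libraries, with Hspa4, Rad50 and Irf1 among those that do not.

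ILC2 with Hes1 transcripts held Hilpda and Calca more often than the others in both libraries. A Hes1 UMI was found in 69 of 225 oil members (30.7%) and 20 of 66 tamoxifen members (30.3%). This split and its genes were chosen after the values were seen, and the cells of 1 library are not replicates, so the shares are descriptions. Hilpda, a lipid droplet gene induced by hypoxia, was found in 60.9% of oil members with Hes1 and 30.1% of those without, and in 65.0% and 28.3% with tamoxifen. Calca was found in 49.3% and 28.8% in oil and in 70.0% and 41.3% with tamoxifen. Ccl1 was found in 29.0% and 5.77% in oil and in 30.0% and 6.52% with tamoxifen. Areg was found in 44.9% and 21.8% in oil, with a smaller gap of 35% and 26.1% with tamoxifen.

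Depth was close in oil, with medians of 5216 and 4861 UMIs for members with and without Hes1. For tamoxifen members the depth of this split is not given here. At 1500 UMIs per cell, 33 oil and 13 tamoxifen members had Hes1. Hilpda then stood at 51.5% against 21.3% in oil and 61.5% against 19.6% with tamoxifen, and Calca at 39.4% against 18.9% and 61.5% against 41.3%. The gap in Ccl1 held in oil (18.2% against 4.73%) and not with tamoxifen (0% against 10.9%), as did that in Areg (45.5% against 16.6%, and 7.69% against 21.7%). Without thinning, Il5 went the other way in oil, where 1 of 26 members with Il5 had Hes1 (3.85%) against 34.2% of the 199 without. With tamoxifen, also without thinning, 3 of 12 members with Il5 had Hes1 (25%) against 31.5% of the 54 without, a smaller gap in few cells.

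**Figure D5:**
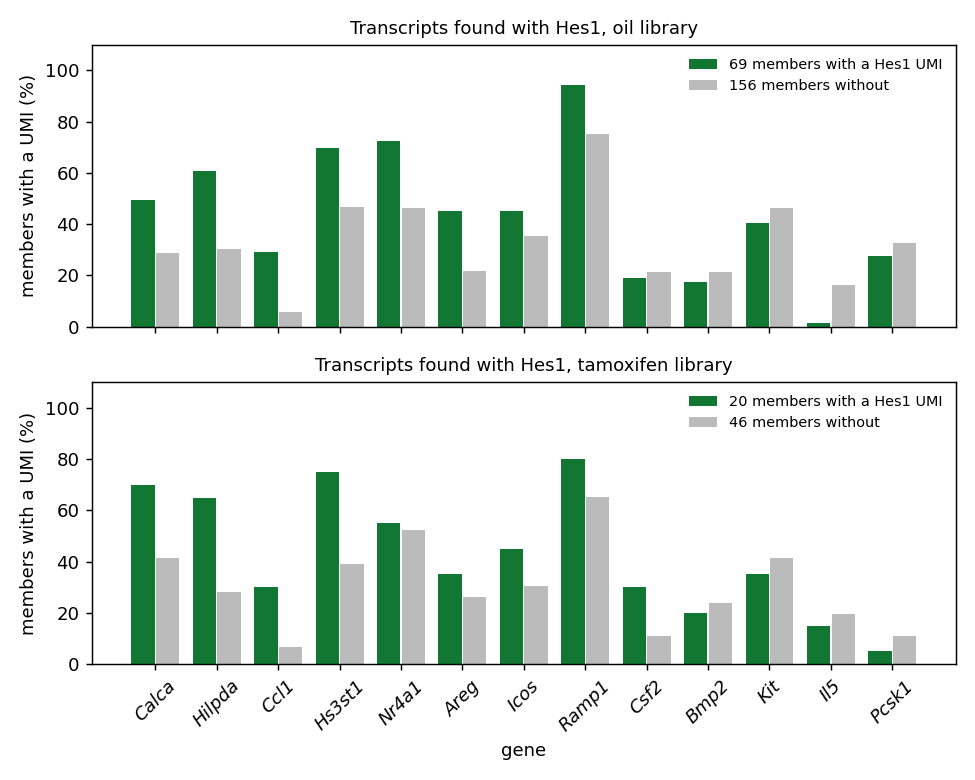
Bars show the share of ILC2 with a UMI of each gene (percent, unthinned, axis from 0) in members with (green) and without (grey) a Hes1 UMI, in the oil library above and the tamoxifen library below. Calca, Hilpda and Ccl1 are found more often beside Hes1 in both libraries, and Il5 less often in oil (1.45% against 16.0%).

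Other transcripts were also counted beside Il5, as a description with genes picked after their values were seen. In oil Pcsk1 was found in 57.7% of the 26 members with Il5 and 27.6% of the 199 without, Kit, the stem cell factor receptor, in 69.2% and 41.2%, and Klrg1 in 46.2% and 24.6%. Their median depth was 5618 against 4866 UMIs. Csf2 showed no such gap in oil (19.2% and 20.6%). At 1500 UMIs the shares were 27.3% of 11 members against 17.3% for Pcsk1, 36.4% against 11.5% for Klrg1 and, turned, 9.09% against 28.8% for Kit. In the tamoxifen library Pcsk1 was found in 8.33% of members with Il5 and 9.26% of those without, and Csf2 in 50.0% and 9.26%. A member with Il5 needs only 2 further genes of the rule, so its cells are not chosen on equal terms with the rest.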

How the data were processed

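Single-cell RNA was measured in 2 libraries made with 10x 3' chemistry version 3. The authors deposited raw UMI counts for 31053 genes, made with Cell Ranger 5.0.1 on GRCm38 (mm10), per the submitters' processing notes, while the gene annotation is not named in the labels. Positions came from GENCODE M21 and promoters from RefSeq.

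Barcodes were kept with at least 300 genes and under 10% mitochondrial UMIs. Doublets were removed only as an alternative (Scrublet in scanpy 1.11.5), and the score would take 8 oil and 2 tamoxifen members. For each library the UMIs of a gene were added up over members and divided by the members' total (CPM). Ratios carry 0.5 added UMI and exact Poisson intervals, and shares carry exact Clopper-Pearson intervals. Genes needed 20 UMIs over both libraries. Thinning to 1500 UMIs left out 23 oil and 7 tamoxifen members. It was a single random draw, and the intervals do not cover the variation between draws. A cell was called female or male from Xist against Y-linked transcripts, and cells with both or with neither were given no sex. The ratio step was tested on simulated counts.

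The text names members of 12 gene lists and up to 12 genes each way with at least 50 CPM, ordered by the bound of the interval closest to 0, without T cell receptor or immunoglobulin segments, genes without a proper name, and mitochondrial, ribosomal protein, haemoglobin, Xist, Tsix and Y-linked genes, or genes whose CPM was lower in members than in other cells by more than 2-fold. It also names up to 15 genes of at least 100 CPM by their fold over other cells, and genes of the Il5 window and of the co-detection splits, which were chosen after their values were seen. Members and lists were chosen with earlier results of these data known. The alternatives that leave out members with other-type markers or the highest cell were added after seeing the data. Some genes are not reported here. scipy 1.17.1 and numpy 2.4.6 were used.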

Additional observations from a re-analysis of the deposited data

How the results depend on the processing

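The log2 ratio of the ILC2 share was -2.35, and 14 of 15 alternatives moved it by less than its interval, from -2.45 with at least 4 of the 8 genes to -2.00 in male cells. In female cells alone it was -2.86. The count of genes at least 2-fold higher was 235, and it was 425 with at least 2 of the 8 genes, 65 in male cells, 613 with a minimum of 10 UMIs, 47 with a minimum of 50 UMIs, 82 after thinning, 136 in members without T cell receptor UMIs, 155 without members that carried markers of another type and 76 without the highest member for each gene. The count at least 2-fold lower was 466, and it was 116 in male cells, 838 with a minimum of 10 UMIs, 112 with a minimum of 50 UMIs, 179 after thinning, 155 without T cell receptor UMIs and 741 without the highest member for each gene. These settings also change how many genes and cells enter, and leaving out the highest member takes 1 of 66 tamoxifen cells but 1 of 225 oil cells. The median of the cytokine and effector list, -0.13, was reversed in male cells (0.24, 9 genes) and kept its sign in 11 alternatives. The cause of each change was not tested. Scaling by the median of ratios subtracted -0.02 from each log2 ratio. With 66 tamoxifen members, a transcript with 0 UMIs in the thinned 59 has an exact upper limit of 6.06% on the share of members with a UMI, and such members may still express the gene. No paired analysis was possible because each group is 1 library. For the same reason no replicate could be left out.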
